A study of Mus musculus with 6 samples.

Results

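Genes that make and handle sterols and fatty acids were compared between cortical cells of mouse embryos exposed to phenobarbital and of control embryos. The 35 genes were taken from the mevalonate pathway (8 genes), squalene formation and the later steps (11), sterol regulation and transport (9) and fatty acid synthesis (7), and every array probe whose accession maps to 1 of them was followed. The arrays held 49 such probes, of 55681 probes for all transcripts, and 48 of them passed the filter on dim probes, so that each of the 35 genes had at least 1 tested probe. In all, 15181 genes with a symbol were tested. The phenobarbital group came from C57BL/6N dams injected with phenobarbital at 80 mg/kg (a stock of 8 mg/mL in saline), given as pairs of injections 6 h apart over embryonic days 10 to 11. The control group came from C57BL/6N dams that received saline. Neocortex was dissected at embryonic day 12 by the protocol (E12.5 by the sample labels), then dissociated and plated, and RNA was taken 4 h after plating. The labels call the cells neural progenitors and give no sort, and they leave unsaid whether the 3 replicates of a group are different litters or cultures. The p-values therefore rest on the spread among these arrays alone, and that spread may be technical.

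Cholesterol is built from acetyl-CoA. The mevalonate pathway makes isoprenoid units and joins them into farnesyl and geranylgeranyl diphosphates, squalene synthase commits farnesyl diphosphate to sterols, and the later enzymes close the rings and trim the molecule to cholesterol. The transcription factors SREBP-1 and SREBP-2, escorted from the endoplasmic reticulum by SCAP and held there by the INSIG proteins when sterols are plentiful, switch on these enzymes and those of fatty acid synthesis. The embryonic brain comes to rely on its own sterol synthesis, and cholesterol is also needed for the processing and reception of Hedgehog signals.

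Phenobarbital-exposed cells differed from control cells in 12 of the 35 genes (34.3%), of which 6 rose and 6 fell. The split depended on the scaling: 6 rose and 1 fell after quantile normalization with or without normexp, 7 and 2 with scaling to the median, and 6 and 2 with the 75th percentile of detected probes. With slide as a fixed block 2 rose and 0 fell. Among all genes and other names tested, each by its brightest probe, 16.1% differed (limma, Benjamini-Hochberg adjusted p below 0.05, two-sided), 6% rose and 10.1% fell. For shares and medians of fold changes below, all genes means these 25304 names, of which 15181 are gene symbols. The genes that rose were Fdft1, Lss and Dhcr7 of sterol synthesis, Npc1 and Npc2 of cholesterol export from lysosomes, and Lpin1, a phosphatidate phosphatase. Those that fell were Hmgcs1, Idi1 and Ggps1 of the mevalonate pathway, Sqle and Msmo1 of the later steps, and the cholesterol exporter Abca1. In these unsorted cells, fewer cells of a type and less RNA per cell cannot be told apart. Among the 12, Lpin1 changed most, by 6.65-fold with a 95% interval of 4.63 to 9.55. The other 11 had log2 fold changes between -0.67 and 1.08. Over the 35 genes the median log2 fold change (phenobarbital minus control) was -0.15, against -0.17 over all genes. The groups did not overlap for 22 of the 35 genes (62.9%), 8 with phenobarbital higher and 14 with phenobarbital lower, against 44.5% of all genes, 11.6% higher and 32.9% lower.

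**Figure D1:**
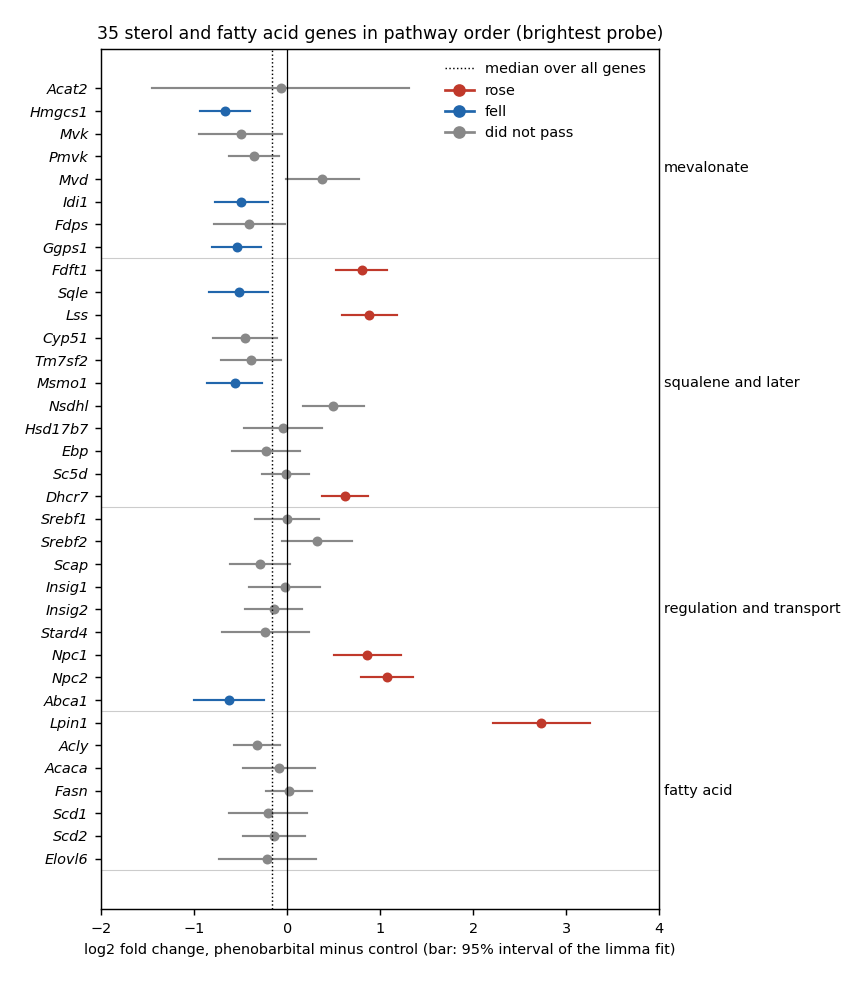
Log2 fold change, phenobarbital minus control, of the brightest probe of each of the 35 genes, in pathway order from top to bottom, with the 95% interval of the limma fit (3 arrays per group). Red genes rose, blue genes fell, grey genes did not pass, and the dotted line is the median over all genes (-0.17); Lpin1 stands far to the right of the other 34 genes.

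The promoters of 6 changed genes are given first: Hmgcs1, Idi1 and Msmo1 fell, and Lss, Npc2 and Lpin1 rose. Each run is the 250 bases before the transcription start in RefSeq's annotation of build GRCm38.p6, written 5′ to 3′ on the gene's strand. Capitals mark CCAAT, the element bound by NF-Y, on either strand (ATTGG on the other), and in Hmgcs1 also TCACNCCAC, a form of the sterol regulatory element bound by SREBPs (GTGGNGTGA on the other strand), and no marked elements overlap in these runs.
Hmgcs1 (chr13:119690101-119690350, plus strand): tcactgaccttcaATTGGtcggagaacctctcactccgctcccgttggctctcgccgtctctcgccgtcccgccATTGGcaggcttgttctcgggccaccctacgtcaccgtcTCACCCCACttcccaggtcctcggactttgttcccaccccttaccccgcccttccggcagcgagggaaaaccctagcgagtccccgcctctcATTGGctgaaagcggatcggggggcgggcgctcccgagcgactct
Idi1 (chr13:8885356-8885605, plus strand): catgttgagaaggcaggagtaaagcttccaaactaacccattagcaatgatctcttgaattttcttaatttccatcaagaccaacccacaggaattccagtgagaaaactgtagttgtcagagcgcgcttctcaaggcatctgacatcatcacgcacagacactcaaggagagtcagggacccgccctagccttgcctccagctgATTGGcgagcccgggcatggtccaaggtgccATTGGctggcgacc
Msmo1 (chr8:64733579-64733828, minus strand): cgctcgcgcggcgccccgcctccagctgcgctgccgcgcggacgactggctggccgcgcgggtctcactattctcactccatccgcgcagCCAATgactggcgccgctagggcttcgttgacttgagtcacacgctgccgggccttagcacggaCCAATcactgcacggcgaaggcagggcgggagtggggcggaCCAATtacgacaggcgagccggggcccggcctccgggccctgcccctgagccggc
Lss (chr10:76531355-76531604, plus strand): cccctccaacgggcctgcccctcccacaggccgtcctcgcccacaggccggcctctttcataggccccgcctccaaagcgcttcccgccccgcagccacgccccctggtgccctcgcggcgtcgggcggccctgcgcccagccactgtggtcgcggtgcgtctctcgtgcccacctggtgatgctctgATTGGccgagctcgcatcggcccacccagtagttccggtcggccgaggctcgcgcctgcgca
Npc2 (chr12:84773113-84773362, minus strand): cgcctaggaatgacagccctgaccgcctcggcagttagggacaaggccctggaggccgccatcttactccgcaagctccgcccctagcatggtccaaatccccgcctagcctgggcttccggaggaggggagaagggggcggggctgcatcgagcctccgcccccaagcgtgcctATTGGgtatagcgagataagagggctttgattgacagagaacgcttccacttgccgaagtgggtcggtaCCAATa
Lpin1 (chr12:16610967-16611216, minus strand): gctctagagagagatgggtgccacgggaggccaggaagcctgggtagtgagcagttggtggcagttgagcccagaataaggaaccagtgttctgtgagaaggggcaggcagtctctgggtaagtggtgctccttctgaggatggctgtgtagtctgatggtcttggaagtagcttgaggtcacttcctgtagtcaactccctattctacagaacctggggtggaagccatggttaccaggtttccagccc

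Among these 6 promoters, Hmgcs1 and Msmo1 held 3 CCAAT elements each, Idi1 and Npc2 held 2, Lss held 1 and Lpin1 none. RefSeq promoters were at hand for 28 of the 35 genes (36 windows). CCAAT stood in 22 of these windows (61.1%), in 21 of the 28 genes, against 33.9% of the 32851 windows of this length for all genes. The element was not particular to changed genes. Among genes that did not pass, Mvk held 5 and Fasn and Hsd17b7 3 each, while Acat2, Scap, Acly, Acaca and Elovl6 held none. The letters CACGTG, an E-box, stood in 16.7% of the 36 windows, against 6.02% of all windows. TCACNCCAC was found in the Hmgcs1 window alone among the 36, and in 1.05% of all windows. The genes without an entry were Fdps, Fdft1, Sqle, Stard4, Npc1, Scd1 and Scd2. A match describes these letters and does not show that a factor binds there.

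Signals are given on the log2 scale relative to the 75th percentile of the same array, so 0 is that percentile and 1 is a doubling. Arrays differed in ways that bear on all values below. Control replicate 1 shared slide 1 with the 3 phenobarbital arrays, and control replicates 2 and 3 were each on a slide of their own, so a fit with slide as a block sets the phenobarbital arrays against control replicate 1 alone. Control replicate 2 lay farthest from the others, with Pearson's r across probes of 0.982 and 0.987 to the other controls, against 0.995 between those. Bright probes had lower fold changes than dim ones: with all probes in 5 equal bins of signal, the median log2 fold change was -0.25 in the brightest bin, where 3.03% rose and 16.2% fell, and -0.07 in the dimmest. Of the 35 genes, 17 lay in the brightest bin, where 2 rose and 5 fell. The median over all probes was -0.15 with the scaling used here, -0.06 after quantile normalization and -0.04 with normexp and quantile normalization. The 12 calls kept their sign under the 4 other scalings, though not always their significance. Leaving out an array or blocking on slide could not turn a sign, since the groups of all 12 lie apart, and 6 of the 21 other settings leave the fold change as it is.

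**Figure D2:**
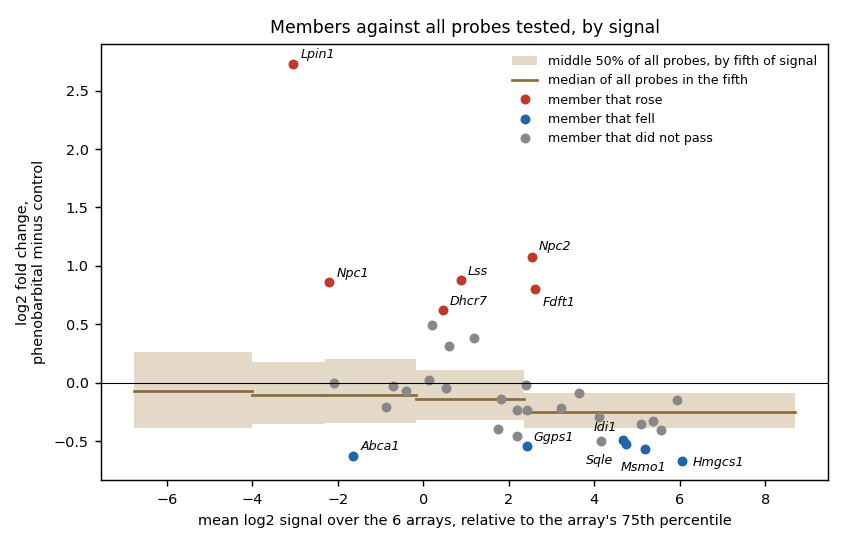
Log2 fold change, phenobarbital minus control (vertical), against mean log2 signal over the 6 arrays (horizontal) for the 35 genes, over the median (brown line) and middle 50% (band) of all 34673 tested probes in 5 bins of signal. Of the genes that fell, 5 lie in the brightest bin, and Npc2 and Fdft1 rose within the same bin, whose median was -0.25.

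Among the mevalonate enzymes, all changes that passed the test were falls. Of 8 genes, 3 fell, 5 did not pass and none rose. That is 37.5% called, against 16.1% of all genes, 6% rising and 10.1% falling. The 3 that fell, Hmgcs1, Idi1 and Ggps1, lie in the brightest bin of signal. In that bin 16.2% of all probes fell, 3.03% rose and the median was -0.25. The log2 fold change was negative for 7 of the 8, with a median of -0.45, though Pmvk had 0.01 with normexp. The sign of Acat2 turned without control replicate 2, and it held under only 3 of the 4 other scalings. Hmgcs1, which condenses acetoacetyl-CoA with acetyl-CoA to HMG-CoA, had signals of 5.72, 5.79 and 5.61 on the phenobarbital arrays, against 6.27, 6.48 and 6.37 on the control arrays. The groups did not overlap, and Hmgcs1 fell by 0.67 ± 0.11 (SE, n = 3 per group; limma, adjusted p = 0.0171). Idi1, the isomerase that supplies dimethylallyl diphosphate, had 4.43, 4.57 and 4.27 with phenobarbital and 4.91, 4.84 and 4.99 in controls, and fell by 0.49 ± 0.12 (adjusted p = 0.0405). Ggps1 makes geranylgeranyl diphosphate, a lipid that is attached to proteins as a membrane anchor. Its brighter probe had 2.20, 2.07 and 2.15 with phenobarbital and 2.69, 2.80 and 2.57 in controls, and fell by 0.55 ± 0.11 (adjusted p = 0.0266). Its dimmer probe also had groups apart and a log2 fold change of -0.33 ± 0.10, which did not pass (adjusted p = 0.0632).

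Each of these 3 falls passed in only 1 of the 6 fits that left out an array, the fit without control replicate 2. Over the other fits the adjusted p reached 0.0669 for Hmgcs1, 0.121 for Idi1 and 0.0928 for Ggps1. Within slide 1 the log2 fold changes were -0.56 for Hmgcs1, -0.49 for Idi1 and -0.55 for Ggps1, and none passed (adjusted p = 0.157, 0.217 and 0.153). After quantile normalization Hmgcs1 alone passed, with -0.39. With normexp Ggps1 alone passed, with -0.48.

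The remaining mevalonate genes did not pass. Mvk, mevalonate kinase, had log2 fold changes of -0.50 ± 0.19 and -0.34 ± 0.14 on its 2 probes. Pmvk, the next kinase, had -0.36 ± 0.11 on the brighter probe and -0.08 ± 0.10 on the dimmer one. Fdps, farnesyl diphosphate synthase, had -0.41 ± 0.16. On the brighter probes of Mvk and Pmvk and on the probe of Fdps, all 3 phenobarbital arrays lay below all 3 controls. Over all probes, groups lay apart for 44%, with phenobarbital lower for 30.6% and higher for 13.4%. Mvd, mevalonate diphosphate decarboxylase, was the 1 gene of the 8 with a positive value, 0.38 ± 0.16, and its groups overlapped. Acat2, the cytosolic acetoacetyl-CoA thiolase, had signals of -0.33, -0.79 and -0.17 with phenobarbital and -0.95, 1.02 and -1.16 in controls. Control replicate 2 was the highest of the 6 for Acat2, and the 95% interval of its log2 fold change ran from -1.45 to 1.31. The log2 fold change of Acat2 was -0.07 as reported, 0.62 without control replicate 2 (limma, adjusted p = 0.0849), 0.52 with slide as a fixed block and 0.42 with array weights.

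From squalene formation onwards the pathway was split. Among 11 genes there were 3 rises and 2 falls (45.5% called, against 16.1% of all genes). The other 6 did not pass, and the median over the 11 was -0.05. Fdft1, squalene synthase, had 3.06, 2.94 and 3.04 with phenobarbital, against 2.16, 2.12 and 2.37 in controls. It rose by 0.80 ± 0.11 (limma, adjusted p = 0.0106), and its dimmer probe had 0.60 ± 0.16 (adjusted p = 0.0506). Lss, lanosterol synthase, which closes the ring system, had 1.30, 1.15 and 1.47 with phenobarbital, against 0.43, 0.35 and 0.51 in controls. Lss rose by 0.88 ± 0.12 (adjusted p = 0.0101). Dhcr7, a sterol reductase near the end of the pathway, had 0.76, 0.66 and 0.86 with phenobarbital, against 0.16, 0.09 and 0.16 in controls, and rose by 0.62 ± 0.10 (adjusted p = 0.0165). Between these enzymes in the pathway stand 2 that fell. Sqle, squalene epoxidase, had 4.59, 4.51 and 4.31 with phenobarbital, against 5.05, 4.82 and 5.11 in controls, and fell by 0.52 ± 0.13 (adjusted p = 0.0448). Msmo1, the sterol C4-methyl oxidase, had 5.04, 4.99 and 4.72 with phenobarbital, against 5.46, 5.47 and 5.51 in controls, and fell by 0.57 ± 0.12 (adjusted p = 0.0306).

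Lss passed whichever array was left out, with an adjusted p of at most 0.0487. Fdft1 did not pass without control replicate 1 (0.77, adjusted p = 0.0527) or phenobarbital replicate 1 (0.77, adjusted p = 0.0514). Dhcr7 did not pass without control replicate 1 (adjusted p = 0.0664), phenobarbital replicate 1 (0.0685) or phenobarbital replicate 2 (0.051), with values of 0.62 to 0.67. Sqle and Msmo1 passed only without control replicate 2, and their adjusted p reached 0.135 and 0.0961 otherwise. Within slide 1 the log2 fold changes were 0.85 for Fdft1, 0.88 for Lss, 0.60 for Dhcr7, -0.58 for Sqle and -0.55 for Msmo1. None of these 5 passed there (adjusted p = 0.0647 for Fdft1, 0.0877 for Lss, 0.144 for Dhcr7, 0.170 for Sqle and 0.201 for Msmo1). Fdft1, Lss and Dhcr7 passed under each of the 4 other scalings, Msmo1 under 1 and Sqle under none.

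**Figure D3:**
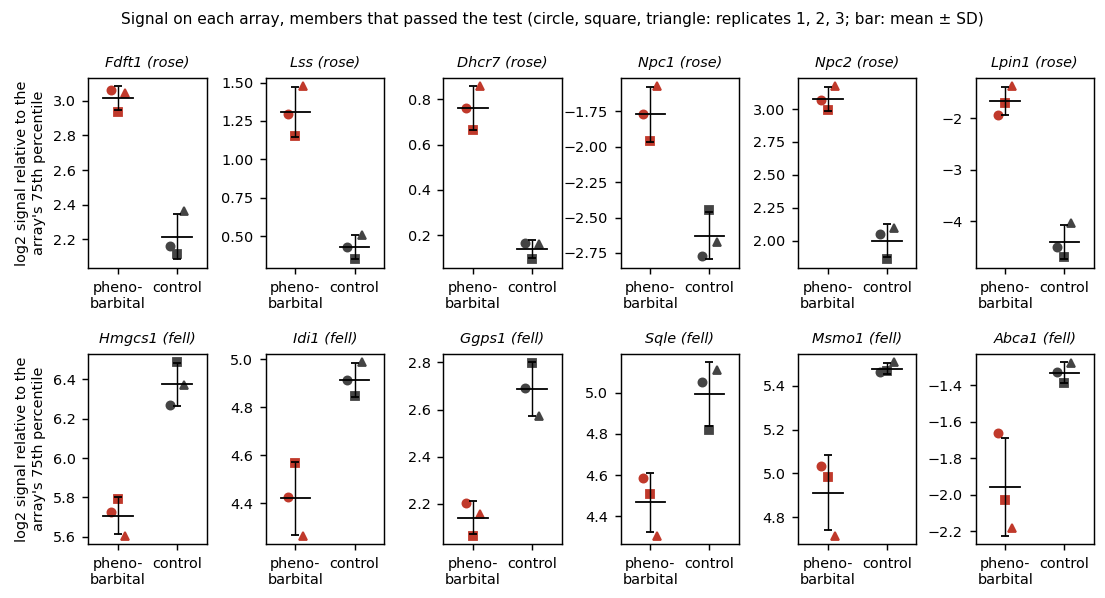
Log2 signal relative to the array's 75th percentile on each array for the 12 genes that passed the test, phenobarbital left (red) and control right (dark), with the mean and SD of 3 arrays. The groups are apart in all 12 panels, but these genes were picked by the test on the same arrays. Groups lay apart for 44.5% of all genes. The vertical axis differs between panels.

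Of the 6 genes of this segment that did not pass, Nsdhl, the C4-decarboxylating dehydrogenase, lay nearest to the threshold. Its brighter probe had 0.39, 0.29 and 0.69 with phenobarbital, all above the control values, which ran from -0.12 to 0.00. Its log2 fold change was 0.50 ± 0.14 (limma, adjusted p = 0.0540), and its dimmer probe had -0.27 ± 0.24. Cyp51, the C14-demethylase, had -0.45 ± 0.14 (adjusted p = 0.0738). It passed without control replicate 2 (-0.56, adjusted p = 0.0417). Ebp, a sterol isomerase, had -0.23 ± 0.15 and Sc5d, a desaturase, -0.02 ± 0.10.

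Probes of the same gene disagreed in this segment. Hsd17b7, the C3-ketosteroid reductase, had 0.45, 0.27 and 0.78 with phenobarbital on its brighter probe, against 0.77, 0.43 and 0.45 in controls, and the groups overlapped. Its second probe, nearly as bright with phenobarbital, had 0.32, 0.27 and 0.67, against -0.67, -0.82 and -0.78 in controls. That probe rose by 1.18 ± 0.14 (limma, adjusted p = 0.00633), while the first had -0.05 ± 0.17. Tm7sf2, the C14-reductase, had -0.39 ± 0.13 on its brighter probe, which did not pass, while its dimmer probe rose by 0.52 ± 0.13 (adjusted p = 0.0402). Of the 12 genes with more than 1 tested probe, 5 had probes of opposite sign and 3 had probes whose 95% intervals did not all overlap. Over the 48 tested probes 9 rose and 6 fell (31.3%), against 16.2% of all probes tested, 6.97% rising and 9.24% falling. Whether the probes of a gene read different transcripts was not tested.

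**Figure D4:**
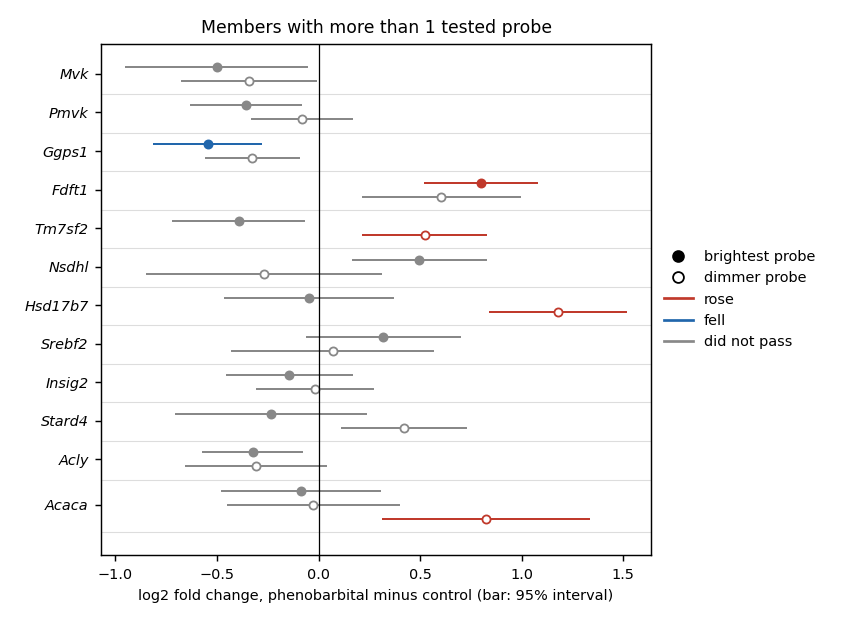
Log2 fold change, phenobarbital minus control, with its 95% interval, for each probe of the 12 genes with more than 1 tested probe, the brightest probe filled and on top. The intervals of the 2 probes of Tm7sf2 and Hsd17b7 lie apart, as does that of the dimmest Acaca probe from its brightest.

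The regulators of the pathway did not pass. Srebf2, which encodes SREBP-2, had 0.80, 0.80 and 0.69 with phenobarbital and 0.14, 0.60 and 0.61 in controls, with a log2 fold change of 0.32 ± 0.16 (limma, adjusted p = 0.197). Its dimmer probe had 0.07 ± 0.20. Srebf1 had -0.01 ± 0.14, with a 95% interval from -0.35 to 0.34. Scap had -0.30 ± 0.13. Insig1, itself a target of SREBPs, had -0.03 ± 0.16, and Insig2 had -0.14 ± 0.13 and -0.02 ± 0.12 on its 2 probes. The probe of Insig1 and both probes of Insig2 had overlapping groups. All phenobarbital arrays lay above all controls on the brighter probe of Srebf2, and below them on the probe of Scap. Groups lay apart for 44% of all probes. Stard4, a cytosolic sterol carrier, had -0.23 ± 0.19 on its brighter probe and 0.42 ± 0.13 on its dimmer one. Neither passed, though on the dimmer probe the groups lay apart.

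Among the transport genes 2 rose and 1 fell. With the regulators, 33.3% of the 9 genes of this group were called, against 16.1% of all genes. Npc2, the soluble lysosomal protein that passes cholesterol to the membrane protein NPC1, had 3.07, 2.99 and 3.17 with phenobarbital, against 2.05, 1.86 and 2.10 in controls. Npc2 rose by 1.08 ± 0.12 (limma, adjusted p = 0.00492). This is a 2.11-fold change, with a 95% interval of 1.74 to 2.56. Npc1 had -1.77, -1.96 and -1.57 with phenobarbital, against -2.77, -2.45 and -2.67 in controls, and rose by 0.86 ± 0.15 (adjusted p = 0.0182). Abca1, which loads cholesterol onto apolipoproteins, had -1.66, -2.03 and -2.18 with phenobarbital, against -1.32, -1.39 and -1.28 in controls, and fell by 0.63 ± 0.15 (adjusted p = 0.0424). The phenobarbital arrays spread more than the controls for Abca1, with an SD of 0.27 with phenobarbital and 0.06 in controls. Npc2 passed in each of the 21 other settings, with values of at most 1.23, and within slide 1 it rose by 1.03 (adjusted p = 0.0485). Npc1 passed in 15 of 21 settings. It did not pass without control replicate 1, control replicate 3, phenobarbital replicate 1 or phenobarbital replicate 3 (values of 0.76 to 0.86, adjusted p = 0.0694, 0.0518, 0.0671 and 0.0540), nor within slide 1 (adjusted p = 0.0778). Abca1 passed under none of the 4 other scalings, with values of -0.62 to -0.43. It passed in 8 of 21 settings, and in 1 of the 6 fits with an array left out, that without phenobarbital replicate 1 (-0.77, adjusted p = 0.0425). In the other 5 the adjusted p of Abca1 ran up to 0.121, and within slide 1 its log2 fold change was -0.63 (adjusted p = 0.221).

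Among the 7 genes of fatty acid and glycerolipid synthesis, Lpin1 rose and 6 did not pass (14.3% called, against 16.1% of all genes). Lpin1 encodes lipin-1, which turns phosphatidate into diacylglycerol for triglyceride and phospholipid synthesis. Its tested probe had -1.93, -1.70 and -1.39 with phenobarbital, against -4.49, -4.69 and -4.04 in controls. The probe was well above background on all 6 arrays, and Lpin1 rose by 2.73 ± 0.22 (limma, adjusted p = 0.00248). It passed in each of the 21 other settings, with values of 1.86, under normexp with quantile normalization, to 2.92, without control replicate 3. Within slide 1 it rose by 2.82 (adjusted p = 0.0292). The second probe of Lpin1 was not well above background on any array and was not tested.

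None of the enzymes that build fatty acids passed on its brightest probe. Acly, which supplies cytosolic acetyl-CoA from citrate, had 5.13, 5.30 and 5.18 with phenobarbital, all below the controls at 5.51, 5.51 and 5.56. Its log2 fold change was -0.32 ± 0.10 (limma, adjusted p = 0.0737), and -0.31 ± 0.14 on its dimmer probe. Fasn, fatty acid synthase, had 0.02 ± 0.10, with a 95% interval from -0.23 to 0.27. Acaca, acetyl-CoA carboxylase, had -0.09 ± 0.16 and -0.03 ± 0.17 on its 2 brighter probes, while its dimmest probe rose by 0.83 ± 0.21 (adjusted p = 0.0458). The desaturases Scd1 and Scd2 had -0.20 ± 0.17 and -0.15 ± 0.14, and the elongase Elovl6 had -0.22 ± 0.22. For Fasn, Scd1, Scd2, Elovl6 and the brighter probes of Acaca the groups overlapped.

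Other genes of the same pathways, in 4 lists, were read beside the 35. Of 12 genes for the isoprenoid branches that leave the mevalonate pathway, 2 rose, none fell and 10 did not pass. That is 16.7% called, against 16.1% of all genes, with a median log2 fold change of -0.07. Pdss2, a subunit of the enzyme that makes the side chain of coenzyme Q, rose by 0.84 ± 0.10 (limma, adjusted p = 0.00618). Its other probe rose by 0.88. Fntb, the beta subunit of farnesyltransferase, rose by 1.24 ± 0.26, and by 0.97 on its other probe. Of 20 further genes of sterol synthesis, SREBP processing and the sterol-sensing LXR receptors, 1 rose, 2 fell and 17 did not pass (15% called, median -0.17), also near the share over all genes. Apoe, the main lipid carrier protein of the brain, fell by 0.73 ± 0.11 (adjusted p = 0.0140), and Lpcat3, a phospholipid acyltransferase, rose by 0.56 ± 0.14.

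Of 22 further genes of fatty acid synthesis, elongation, desaturation and activation, 2 rose, 6 fell and 14 did not pass (median -0.26). That is 36.4% called, against 16.1% of all genes, 6% rising and 10.1% falling. The 2 that rose were Fads1 and Tecr. The elongase genes Elovl2 and Elovl4 were among the 6 that fell, by 0.55 ± 0.14 and 0.50 ± 0.11 (limma, adjusted p = 0.0452 and 0.0344). The elongase genes Elovl1, Elovl5 and Elovl7 did not pass, with log2 fold changes of -0.21, -0.10 and -0.52. Fads1, the delta-5 desaturase, had 1.33, 1.28 and 1.62 with phenobarbital, against -0.35, -0.44 and -0.14 in controls, and rose by 1.72 ± 0.14 (limma, adjusted p = 0.00260). Tecr, the final reductase of the elongation cycle, had 2.88, 2.87 and 3.04 with phenobarbital, against 0.98, 1.46 and 1.16 in controls, and rose by 1.73 ± 0.15 (adjusted p = 0.00289). Fads3 fell by 0.48 ± 0.10 and the acyl-CoA synthetase gene Acsl4 by 0.65 ± 0.14. Of 18 genes of glycerolipid synthesis beside Lpin1, 3 rose, 2 fell and 13 did not pass (median -0.14). Here 27.8% were called, against the same 16.1% of all genes. Lpin2, a paralogue of Lpin1, had -0.23, -0.37 and -0.05 with phenobarbital, against -2.02, -1.91 and -2.01 in controls, and rose by 1.77 ± 0.12 (adjusted p = 0.00217). Lpin3, another paralogue, had -0.11 ± 0.21 and did not pass. Dgat1, which makes triglyceride from diacylglycerol, rose by 1.45 ± 0.20. Agpat2, which makes phosphatidate, rose by 1.14 ± 0.20, while Agpat1, its paralogue, fell by 0.65 ± 0.12. Fads1, Tecr and Lpin2 passed in each of the 21 other settings, and within slide 1 they had 1.76, 1.96 and 1.81. Pdss2 and Dgat1 passed in 19 of 21, Apoe in 17, Fntb in 15, Agpat1 and Agpat2 in 14, Acsl4 in 12, and Lpcat3 and Fads3 in 11. Within slide 1 Fntb passed (1.12, limma, adjusted p = 0.0414) and these other 8 did not, with an adjusted p of 0.0647 for Pdss2 to 0.229 for Lpcat3.

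**Figure D5:**
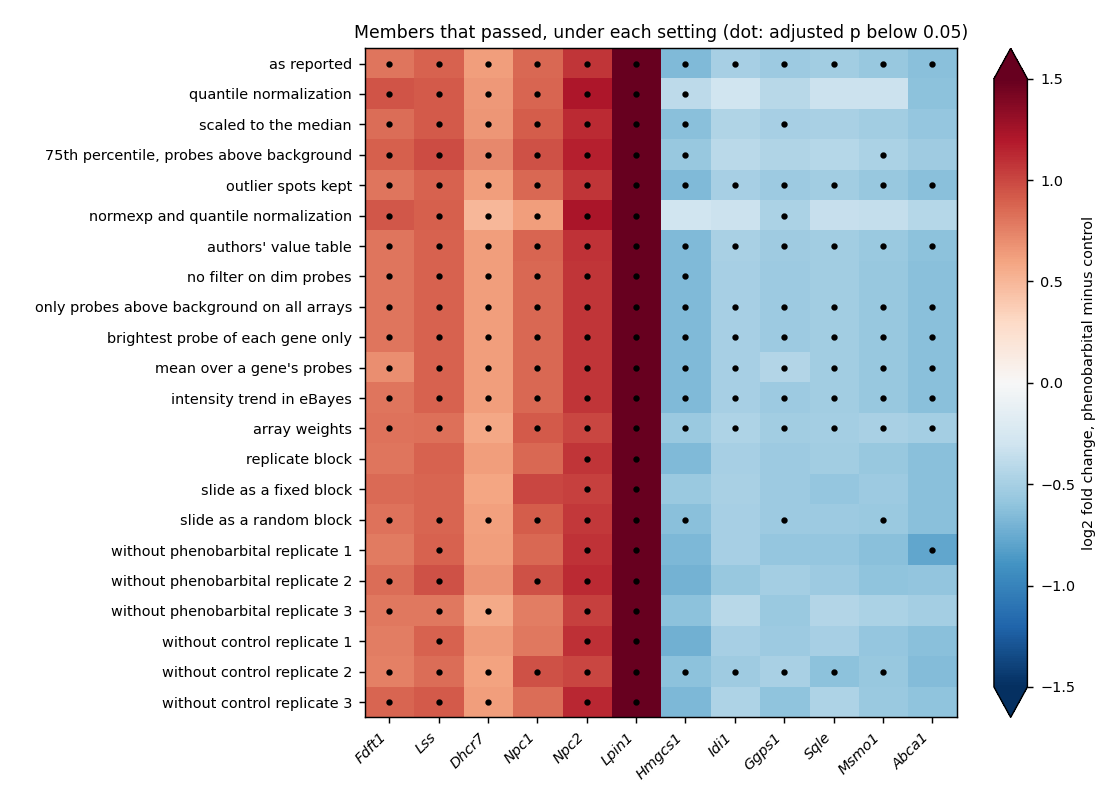
Log2 fold change, phenobarbital minus control (colour, with values beyond 1.5 in the end colours), of the 12 genes that passed, under the reported settings (top row) and 21 others, with a dot where the adjusted p was below 0.05. Lpin1 and Npc2 carry a dot in every row, Lss in all but 2, and the 6 genes that fell in 8 to 13 of the 21 others.

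Markers of several cell types moved with the groups, and their part in the lipid gene results was not tested. The summed signal of each list is given in multiples of the array's 75th percentile. The counts below stand beside 6% rising and 10.1% falling among all genes and other names tested. Of 8 tested choroid plexus markers, 5 rose and none fell, and their sum was 12.3 to 23.5 with phenobarbital and 2.45 to 4.70 in controls. Of the 5, Kcne2 was well above background on 3 phenobarbital arrays and 0 control arrays, so it entered the test through the phenobarbital group alone. Aqp1, Msx1 and Slc4a5 did not pass the test, with log2 fold changes of -0.05, -0.07 and 0.05, while Kl and Cldn1 did not pass the filter. Of 10 erythroid markers none rose and 5 fell, with sums of 693 to 788 with phenobarbital and 1059 to 1733 in controls. No probe was matched to a further listed marker, Ahsp. Of 12 markers of mural cells and meninges none rose and 6 fell (31.6 to 38.2 with phenobarbital and 55.9 to 60.7 in controls), and of 10 endothelial markers none rose and 4 fell (51.0 to 60.4 with phenobarbital and 84.8 to 90.4 in controls). Of 8 neuronal markers none rose and 5 fell (149 to 178 with phenobarbital and 236 to 260 in controls). The 10 markers of radial glia, a kind of neural progenitor, were all tested, with 1 rise, 1 fall and sums of 269 to 301 with phenobarbital and 335 to 360 in controls. The gap lay in Vim, which fell: the other 9 summed to 93.9 to 113.6 with phenobarbital and 96.7 to 107.1 in controls, which overlap. Of 10 microglial and macrophage markers 1 rose and 4 fell, with sums of 10.1 to 12.9 with phenobarbital and 10.8 to 12.8 in controls.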

How the data were processed

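RNA of 3 phenobarbital and 3 control samples was labelled with Cy3 (0.2 µg each) and hybridised to 1-colour Agilent arrays, per the labels' protocols. Spots were quantified by the authors in Agilent Feature Extraction, version 10.7.3.1 per the file headers and 10.7 per the submitters' processing notes, on an array design annotated on mm9. The deposited processed signal of a spot is a linear intensity from which the authors' software had removed background and spatial trend, array by array, without putting arrays on 1 scale. The authors' deposited value table holds log2 values centred per probe on an unknown constant. After a factor per array was taken out, differences between arrays matched the scanner files (99th percentile of the mismatch 1.82e-06), which settled scale and direction. Its column medians were -0.02, -0.09 and -0.08 in phenobarbital replicates 1 to 3 and 0.08, 0.10 and 0.09 in control replicates 1 to 3.

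The values used are log2 of the processed signal minus the array's 75th percentile over 59305 non-control spots. Outlier spots were left out (139 to 198 on phenobarbital arrays, 98 to 145 on control arrays) and replicate spots averaged. No non-control spot was saturated, and at most 1 spot signal was equal between any pair of arrays. Between 62.8% and 68.7% of spots were well above background. Names came from RefSeq accessions (GRCm38.p6, used for names and promoters), which matched 26582 of 55681 probes. The filter kept 34673 probes that had 2 or more values per group and were well above background on all arrays of 1 group or both. They were tested with limma 3.58.1 (lmFit, eBayes; R 4.3.3) and Benjamini-Hochberg adjustment over all of them. A gene was counted by its probe with the highest mean signal. On simulated data with the spreads of these 34673 probes, this comparison's fit recovered 40 of 100 probes changed by 1 and 81 of 100 changed by 2 (log2), with 3 false calls. Precision is limited by the number of arrays.

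The genes, lists and settings were chosen with earlier results of these data known. All 35 genes are named. From each list, up to 4 genes past the threshold were named by smallest p. Lpin3 and the listed elongase genes Elovl1, Elovl2, Elovl4, Elovl5 and Elovl7 are named besides. Of the marker lists counts and sums are given, with a few genes that bear on them. A few genes that these rules select are not reported here. Normexp (offset 50) was run on median spot signals, since the files hold no means. Other settings changed the scaling, filter, outlier spots, probe choice, variance prior, array weights, source of the values, blocks and arrays.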

Additional observations from a re-analysis of the deposited data

How the results depend on the processing

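The 12 calls among the 35 genes kept their sign under the 4 other scalings, and the counts moved mostly through the falls. With all 6 arrays in the fit, the count of genes that rose was 6 or 7 except with array weights (9), with slide as a fixed block (2) and with the replicate number as a replicate block (2). The count that fell, 6 as reported, was 1 after quantile normalization, 1 with normexp and quantile normalization, 1 with no filter on dim probes, 2 with scaling to the median, 2 with the 75th percentile of detected probes only, 3 with slide as a random block, 9 with an intensity trend, 12 with array weights, 0 with slide as a fixed block and 0 with the replicate block. With 1 array left out, 3 to 6 genes rose and 0 to 6 fell. It was 6 and 6 without control replicate 2, 5 and 0 without control replicate 3, phenobarbital replicate 2 or phenobarbital replicate 3, 3 and 1 without phenobarbital replicate 1, and 3 and 0 without control replicate 1. Counts over the whole array moved too: of all probes tested, 16.2% were called as reported, 1.66% with the replicate block, 3.16% with slide as a fixed block, 3.46% with no filter, 40.1% with array weights, and 3.92% to 17.3% with 1 array left out. The share of rises among all calls was 43.0% as reported, 59.1% after quantile normalization, 62.7% with scaling to the median, 66.8% with the 75th percentile of detected probes and 58.7% with normexp. Among the other lipid genes, in lists of 12, 20, 22 and 18, 8 rose and 10 fell as reported. Of all genes 6% rose and 10.1% fell. The counts were 13 and 27 with array weights, 5 and 1 with no filter, 3 and 0 with the replicate block, and 4 and 0 with slide as a fixed block. The falls were 16 with an intensity trend, 6 after quantile normalization, 2 with scaling to the median and 3 with the 75th percentile of detected probes. With 1 array left out 5 to 9 rose and 0 to 10 fell. Hsd17b7, which did not pass as reported, had 0.57 (adjusted p = 0.0491) with the opposite sign for the mean over its probes, which brings in its rising second probe. Genes that passed in neither fit had the other sign in 42 further cases. The cause of the other shifts was not tested. Fits with an array left out hold 5 arrays in place of 6, and the slide block leaves the spread between controls out. The labels give the replicate numbers no shared source. The deviations of same-numbered arrays from their group means correlated at 0.06, -0.16 and -0.32. For arrays of different number these correlations ran from -0.20 to 0.30. With 3 arrays per group, such values cannot settle whether the numbers pair the samples. On simulated data with 100 changed probes among 34673, 40 of the 100 were recovered at a change of 1. In the data themselves 16.2% of probes were called, and the Benjamini-Hochberg cut-off depends on that share. The simulated recovery therefore does not give the share of changes missed here.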
